A study of Nicotiana tabacum with 78 samples.

Results

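The genes described here are NITAB038231 and NITAB004477, which the study named as S-adenosylmethionine synthase genes. They are 2 of the 2075 tobacco genes in the deposited expression table, and they were found by gene identifier alone. Both match the same Swiss-Prot entry in the authors' annotation, S-adenosylmethionine synthase 1 of tobacco, and the same tomato gene. The table holds 3 further genes annotated as S-adenosylmethionine synthases, NITAB020017, NITAB057196 and NITAB069852, so that the pair is 2 of 5.

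S-adenosylmethionine synthase joins methionine to the adenosyl group of ATP and so makes S-adenosylmethionine, the methyl donor of most methyltransferases. In tobacco roots one of those methyltransferases is putrescine N-methyltransferase (PMT), which methylates putrescine in the first committed step of nicotine synthesis. Nicotine is made in the roots and carried to the leaves, and removal of the flower head, called topping, is the usual agricultural trigger of its synthesis. Once the methyl group has been given away, adenosylhomocysteinase, adenosine kinase and methionine synthase recycle the rest of the molecule, with methyl groups supplied from folate. S-adenosylmethionine is also the precursor of the aminopropyl groups of spermidine and spermine and of ethylene.

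RNA was sequenced from full-grown leaves and from roots of greenhouse-grown Nicotiana tabacum. TN90 is an untransformed Burley cultivar. PMT1 (06TN2046), PMT2 (06TN2048) and PMT3 (06TN2052) are lines of TN90 in which PMT genes are silenced by RNA interference from a construct under the constitutive 35S promoter, introduced with Agrobacterium, and each is 1 transgenic line. Plants of every genotype were topped at flowering and sampled a day later, or left untopped. The 4 genotypes, 2 tissues and 2 treatments give 16 groups.

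Of 78 labelled samples, 77 fell into the 16 groups, with 4 or 5 in each. The tissue tags of 35 samples contradict their titles, and the titles were followed. For TN90 the free-text descriptions say PMT1, and titles and genotype tags were followed. 1 PMT2 topped sample, titled leaf and tagged root, was left in no group, and 6 plants (4 of PMT2 and 2 of PMT3) carry opposite treatment labels on leaf and root. The deposited library table lists 37 leaf and 40 root libraries of 16299684 to 517291516 reads. 1 PMT2 topped root library stood apart from the other root libraries in percent mapped, with 95.9% of its reads mapped and 98.1% of those in gene models, though within its own group it did not pass the limit for an outlier. The other 39 root libraries had 75.6 to 88.1% mapped and 69.0 to 97.3% in gene models, and the leaf libraries 85.4 to 96.7% and 96.5 to 99.1%.

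Expression was deposited as RPKM, a read number scaled to gene length and library size, with 1 mean over the libraries of each group. Values for single libraries were not used here, so every value below is the authors' mean, with no SD, and no difference was tested against the spread between replicates. Whether the libraries of any pair of groups overlap cannot be told from means. A fold is a difference of log2(RPKM + 0.1), except that steps in the order of groups and changes of summed RPKM are plain ratios. A gene was called higher or lower where the fold was at least 2 and either group reached 1 RPKM. The table was selected by comparisons in roots of these same libraries, so the values of the pair describe genes already chosen on such differences.

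The 5 PMT genes of the table, the target of the silencing, summed in untopped roots to 90.7 RPKM in TN90, 69.4 in PMT1, 36.8 in PMT2 and 28.5 in PMT3. In topped roots the PMT sum was 842 RPKM in TN90 but 53.9 in PMT1, 82.0 in PMT2 and 86.9 in PMT3. In leaves it was between 0.387 and 8.89 RPKM. Of the 5, NITAB068133 stood at 0.137 to 0.227 RPKM in TN90 leaves and at 2.05 to 8.10 RPKM in leaves of the lines. PMT genes are near-identical copies whose reads may be split among them, so their sum was used.

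NITAB038231 had the highest RPKM of the 5 S-adenosylmethionine synthase genes of the table in every root group. Its level in untopped roots was 98.4 RPKM in TN90, 132 in PMT1, 211 in PMT2 and 93.3 in PMT3. In topped roots it was 333 RPKM in TN90, 340 in PMT1, 410 in PMT2 and 204 in PMT3. Ranked by level, it was between the 60th and the 104th of the 2075 genes in each root group. In untopped leaves NITAB038231 stood at 8.11 RPKM in TN90, 9.12 in PMT1, 9.42 in PMT2 and 7.24 in PMT3. In topped leaves it stood at 17.5, 9.71, 15.3 and 13.8 RPKM in the same order of genotypes. In tissue RNA of this kind, a change in the number of cells that express a gene cannot be told apart from a change in RNA per cell.

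NITAB004477 was lower than NITAB038231 in every group, and its root levels too were above its leaf levels. In untopped roots it measured 20.2 RPKM in TN90, 29.7 in PMT1, 47.6 in PMT2 and 21.1 in PMT3. In topped roots it measured 62.1 RPKM in TN90, 65.8 in PMT1, 73.8 in PMT2 and 37.2 in PMT3. Its leaf levels were 1.48, 1.66, 2.49 and 1.44 RPKM without topping and 3.69, 2.11, 3.57 and 2.10 RPKM with it, again in the order TN90, PMT1, PMT2 and PMT3. In the smallest library of a group, the lowest leaf level of NITAB004477 corresponds to about 20.7 reads per kilobase of transcript and its lowest root level to about 363.

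**Figure D1:**
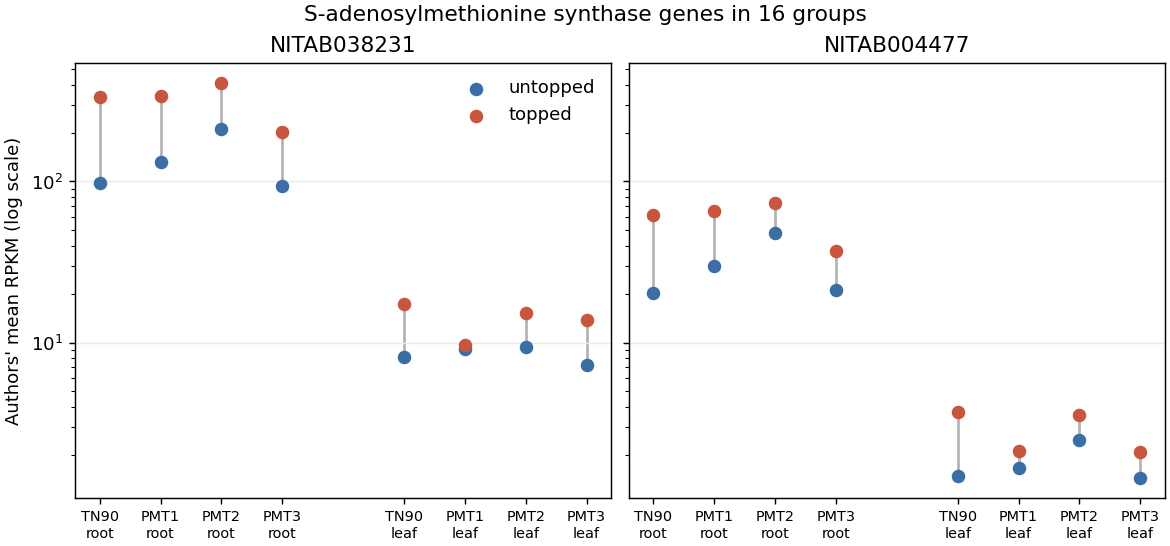
Authors' mean RPKM on a log scale of NITAB038231 (left) and NITAB004477 (right) in roots and leaves of TN90, PMT1, PMT2 and PMT3, with 1 point for the untopped and 1 for the topped group, joined by a line; no error bar is possible from means. All root points lie above all leaf points, and the topped point lies above the untopped one in each of the 8 pairs of each gene.

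The order of the root groups was nearly the same for both genes. Topped roots of PMT2, PMT1 and TN90 came first, then untopped PMT2 roots, topped PMT3 roots, untopped PMT1 roots, and last the untopped roots of TN90 and PMT3, whose order differed between the genes. Steps between neighbours in this order were uneven. For NITAB038231, topped PMT1 roots were 1.02-fold above topped TN90 roots, and untopped PMT2 roots 1.03-fold above topped PMT3 roots, while topped TN90 roots were 1.58-fold above untopped PMT2 roots and topped PMT3 roots 1.54-fold above untopped PMT1 roots. The lowest root group lay 5.35-fold above the highest leaf group for NITAB038231 and 5.46-fold for NITAB004477. Every root group was above every leaf group for 67.6% of the table as well. The topped and untopped root groups overlapped, since untopped PMT2 roots were above topped PMT3 roots for both genes, and 11.4% of the table had no such overlap. PMT2 and PMT3 are also the genotypes with plants whose leaf and root labels give opposite treatments.

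In roots both genes were higher after topping in all 4 genotypes. NITAB038231 was 3.38-fold higher in TN90, 2.57-fold in PMT1, 1.95-fold in PMT2 and 2.18-fold in PMT3, and so was called in 3 of 4 genotypes. NITAB004477 was 3.07-fold higher in TN90, 2.21-fold in PMT1, 1.55-fold in PMT2 and 1.76-fold in PMT3, and was called in 2 of 4. The share of the table called higher in the same comparisons was 47.3% in TN90, 22.1% in PMT1, 12.7% in PMT2 and 27.9% in PMT3. For each gene, the fold in TN90 exceeded that in each of the 3 lines, and the fold of NITAB038231 exceeded that of NITAB004477 in every genotype. The plants with opposite treatment labels on leaf and root are 4 of PMT2 and 2 of PMT3, with 0 of TN90 and 0 of PMT1. The bearing of these labels on the folds was not tested.

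The whole table moved upward with topping in roots, its median log2 difference being 0.91 in TN90, 0.43 in PMT1, 0.13 in PMT2 and 0.39 in PMT3. Relative to that median, NITAB038231 was 1.81-fold higher in TN90, 1.91-fold in PMT1, 1.78-fold in PMT2 and 1.66-fold in PMT3. Relative values of NITAB004477 were 1.64, 1.64, 1.42 and 1.34 in the same order, so no value of either gene reached 2-fold on that scale. NITAB038231 had a larger difference than 75.7 to 87.8% of the genes ranked in the 4 genotypes, and NITAB004477 a larger one than 65.7 to 83.6%. When instead each group was centred on its own median, 1 of the 8 values remained called, NITAB038231 in TN90 at 2.14-fold. The share of the table called on that centred scale was not computed.

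The PMT2 topped root mean is over 6 listed libraries, among them the library that stood apart, while the labels give 5 samples. If that library held no reads of the pair, the mean of the other 5 could be at most 492 RPKM for NITAB038231 and 88.5 RPKM for NITAB004477. The PMT2 folds would then be at most 2.33 and 1.86, so that NITAB038231 would be called in PMT2 too. The lower limit cannot be had from the mean, and the part of this library in the PMT2 values was not tested.

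In leaves both genes were also higher after topping in all 4 genotypes, with calls in TN90 alone. NITAB038231 was 2.14-fold higher in TN90 leaves, 1.07-fold in PMT1, 1.62-fold in PMT2 and 1.90-fold in PMT3. NITAB004477 was 2.40-fold higher in TN90 leaves, 1.25-fold in PMT1, 1.41-fold in PMT2 and 1.43-fold in PMT3. Among table genes with 1 RPKM in either leaf group, 16.6% were called higher in TN90, 7.96% in PMT1, 6.01% in PMT2 and 9.65% in PMT3. The leaf table median moved by 0.07 or less on the log2 scale in each genotype. The call of NITAB004477 in TN90 leaves was lost with a pseudocount of 1 RPKM, at 1.89-fold, and with a minimum of 5 RPKM. TN90 topped leaves are 3 listed libraries against 4 labelled samples. The conflicting treatment labels in PMT2 and PMT3 apply to leaves as well.

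The pair was compared between each line and TN90 at equal tissue and treatment. The lines share their TN90 groups, so the 3 comparisons at one tissue and treatment are not independent. The conflicting treatment labels in PMT2 and PMT3 apply here too, and their bearing on these values was not tested. In untopped roots, NITAB038231 was 1.34-fold TN90 in PMT1, 2.14-fold in PMT2 and 0.948-fold in PMT3. NITAB004477 was 1.47-fold TN90 in PMT1, 2.36-fold in PMT2 and 1.05-fold in PMT3. Both PMT2 values were called higher, as were 39.7% of the table, against 9.43% in PMT1 and 6.12% in PMT3. Relative to the table median the PMT2 values were 1.30 and 1.43.

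In topped roots no value of the pair was called against TN90. NITAB038231 was 1.02-fold TN90 in PMT1, 1.23-fold in PMT2 and 0.611-fold in PMT3, and NITAB004477 was 1.06-fold, 1.19-fold and 0.600-fold. In those comparisons 4.29% of the table was called higher and 7.09% lower in PMT1, 5.15% and 6.98% in PMT2, and 5.07% and 17.9% in PMT3. The PMT genes stood elsewhere in those same groups, at 842 RPKM in TN90 and 53.9 to 86.9 RPKM in the lines. In leaves, 0 of 12 values of the pair were called against TN90, and they lay between 0.559-fold (NITAB038231, topped PMT1) and 1.64-fold (NITAB004477, untopped PMT2). Of the table, 4.55%, 9.41% and 3.09% were called higher and 10.2%, 19.1% and 7.94% lower in untopped leaves of PMT1, PMT2 and PMT3. In topped leaves 15.2%, 14.8% and 25.6% were called higher and 11.6%, 7.89% and 13.9% lower.

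Both genes were called higher in roots than in leaves in all 16 comparisons at equal genotype and treatment. NITAB038231 ranged from 12.0-fold in untopped TN90 to 34.7-fold in topped PMT1. NITAB004477 ranged from 12.8-fold in untopped TN90 to 29.8-fold in topped PMT1. The table was selected in roots, and much of it was called higher there: 75.4%, 80%, 84.1% and 73.7% in untopped and 84.7%, 83.2%, 83.1% and 79.6% in topped plants of TN90, PMT1, PMT2 and PMT3. In all 8 combinations of genotype and treatment, 52.5% of the table was called. Relative to the table median the pair was 1.75-fold to 4.34-fold higher. When each group was centred on its own median, 8 of the 16 values remained called, and the table share on that scale was not computed.

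The level of NITAB038231 was 4.42 to 5.56 times that of NITAB004477 in root groups, with a median of 5.03. RPKM is per length, so the levels of both genes within a group can be set side by side. In each genotype the root ratio was higher after topping: 4.88 against 5.37 in TN90, 4.46 against 5.17 in PMT1, 4.42 against 5.56 in PMT2 and 4.42 against 5.47 in PMT3. In leaves the ratio ranged from 3.78 to 6.58 and moved down with topping in TN90 and PMT1 and up in PMT2 and PMT3. The authors allowed a read up to 10 hits, and both genes match 1 entry, so reads of similar stretches may be shared between them and the ratio is uncertain.

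NITAB020017, which matches S-adenosylmethionine synthase 2 of tomato, ranged from 13.0 to 46.0 RPKM in roots and from 5.67 to 24.0 RPKM in leaves. It was higher in roots in all 8 comparisons, at 1.58-fold to 4.12-fold, and called in 5 of them, at 2.27-fold to 4.12-fold. Each of the 8 values was below the table median. NITAB057196 and NITAB069852, which match S-adenosylmethionine synthase 3 of tomato, were root genes, at 14.5 to 51.4 and 6.79 to 21.2 RPKM there and at no more than 0.857 and 0.231 RPKM in leaves.

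Together the pair made up 71.2 to 82.5% of the summed RPKM of the 5 genes in root groups and 45.7 to 58.3% in leaf groups. The sum covers only synthases in the table, which was selected in roots, so synthase genes outside it are not counted. Reads shared between similar genes make these shares uncertain too. NITAB020017 took 6.74 to 9.79% of the sum in roots and 38.1 to 52.0% in leaves. In roots of each genotype the share of the pair was higher after topping, at 77.1% against 82.5% in TN90, 73.8% against 78.7% in PMT1, 76.7% against 82.4% in PMT2 and 71.2% against 81.6% in PMT3.

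**Figure D2:**
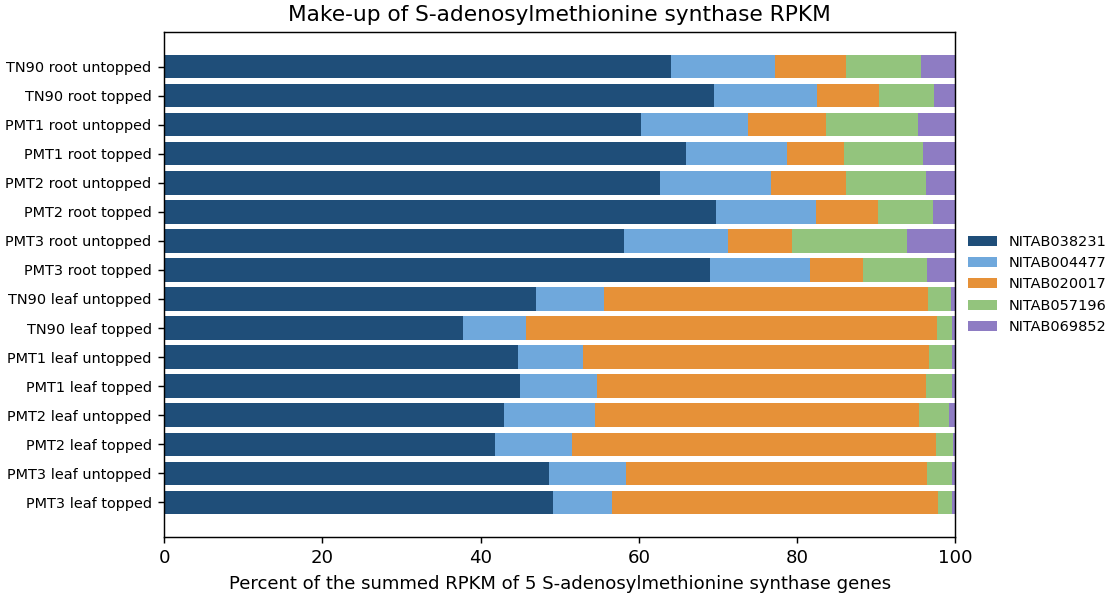
Percent that each gene takes of the summed RPKM of the 5 S-adenosylmethionine synthase genes in the table, which was selected in roots. There is 1 bar for each of the 16 groups. NITAB038231 and NITAB004477 together take 71.2 to 82.5% in root groups, and NITAB020017 takes 38.1 to 52.0% in leaf groups.

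On topping in roots, NITAB020017 went from 13.9 to 38.0 RPKM in TN90, 2.73-fold, and was 1.46-fold to 1.73-fold higher in the lines. NITAB057196 was 2.28-fold higher in TN90 and 1.99-fold in PMT1, but 1.21-fold in PMT2 and 1.02-fold in PMT3. NITAB069852 was 1.90-fold higher in TN90, 2.05-fold in PMT1, 1.29-fold in PMT2 and 1.09-fold in PMT3. Over the 5 genes, 4 were called higher in TN90 roots, 3 in PMT1, 0 in PMT2 and 1 in PMT3. The table shares called higher were 47.3%, 22.1%, 12.7% and 27.9% in the same order. The median log2 difference of the 5 genes was 1.45, 1.04, 0.54 and 0.61, beside the table medians given above. None of the 5 was called in all 4 genotypes, as 7.57% of the table were. In leaves NITAB020017 was 3.37-fold higher in TN90, from 7.07 to 24.0 RPKM, and 2.03-fold higher in PMT3, while it was 1.01-fold in PMT1 and 1.87-fold in PMT2.

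Genes that return S-adenosylhomocysteine to methionine were all called higher in topped TN90 roots, 4 of 4, where 47.3% of the table was called. NITAB056873, a methionine synthase, went from 24.8 to 95.0 RPKM in TN90 roots, 3.82-fold. It was 2.41-fold higher in PMT1, 1.74-fold in PMT2 and 1.62-fold in PMT3. The other methionine synthase, NITAB068658, was 3.25-fold higher in TN90, 2.18-fold in PMT1, 1.58-fold in PMT2 and 1.39-fold in PMT3. NITAB015083, adenosylhomocysteinase, which splits the product of methyl transfer, was 2.35-fold higher in TN90, 1.76-fold in PMT1, 1.11-fold in PMT2 and 1.16-fold in PMT3. NITAB038396, an adenosine kinase, which removes the adenosine set free in that step, was 2.24-fold higher in TN90, 1.86-fold in PMT1, 1.14-fold in PMT2 and 1.48-fold in PMT3. The calls over this list were 4 in TN90, 2 in PMT1 and 0 in each of PMT2 and PMT3, against table shares of 22.1% in PMT1, 12.7% in PMT2 and 27.9% in PMT3. The list's median log2 differences were 1.47, 1.01, 0.42 and 0.52.

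Among the root comparisons, the 3 genes that supply methyl groups through folate were called in TN90 alone. The table share called was also highest in TN90 roots, at 47.3% against 12.7 to 27.9% in the lines. NITAB008372 and NITAB009421, methylenetetrahydrofolate reductases, were 2.29-fold and 2.18-fold higher in TN90 and 1.93-fold and 1.79-fold in PMT1. NITAB015084, a serine hydroxymethyltransferase, was 2.19-fold higher in TN90 and 1.90-fold in PMT1. In PMT2 and PMT3 the 3 genes ranged from 1.05-fold to 1.64-fold. Their median log2 difference was 1.13 in TN90, 0.93 in PMT1, 0.31 in PMT2 and 0.25 in PMT3, the last of these below the PMT3 table median. In TN90 leaves 1 of the 3 was called higher, where 16.6% of the table was. This was NITAB008372, which went from 0.511 to 2.27 RPKM there, 3.87-fold.

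**Figure D3:**
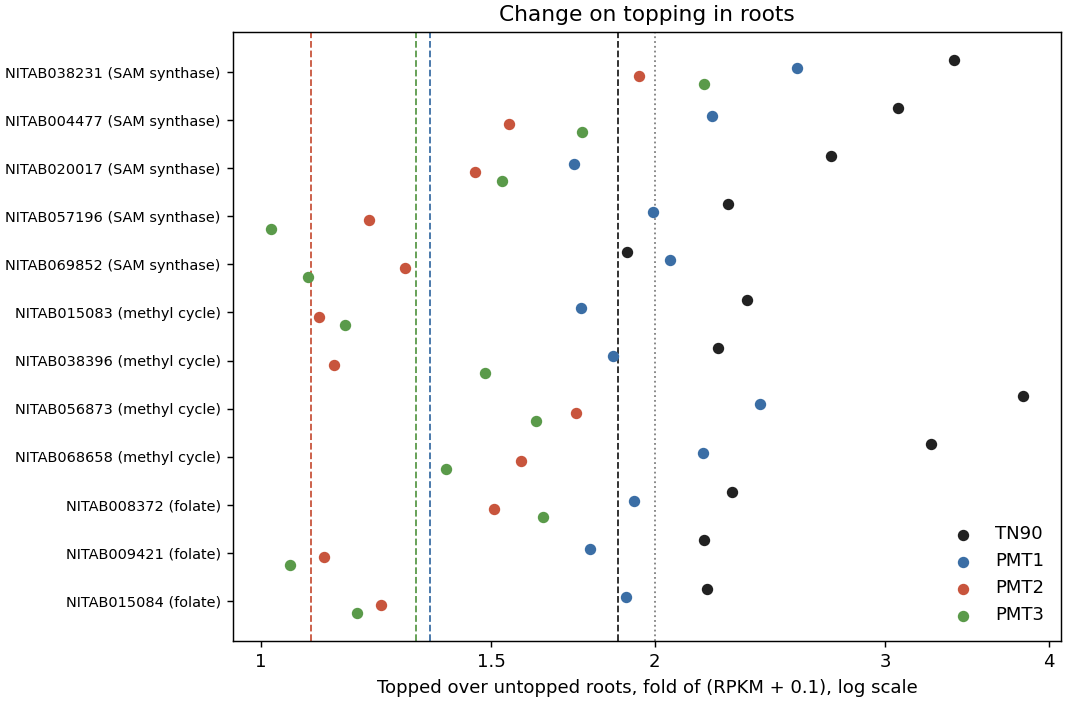
Fold of topped over untopped roots on a log scale for the 5 S-adenosylmethionine synthase, 4 methyl cycle and 3 folate genes, with 1 point for each genotype; dashed lines mark the table median of each genotype in the same colour and the dotted line 2-fold. NITAB038231 and NITAB004477 lie right of the table median in all 4 genotypes, at 1.55-fold to 3.38-fold.

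Sulfur assimilation genes, which feed methionine, moved both ways in TN90 roots, where 47.3% of the table was called higher and 6.3% lower. NITAB018583, a sulfate adenylyltransferase, was 2.24-fold higher, whereas NITAB019895, annotated likewise, went from 3.23 to 0.909 RPKM and was called lower. NITAB036318, annotated as a bifunctional cyanoalanine and cysteine synthase, was 2.07-fold higher at 1.91 RPKM. None of these 3 genes was called in roots of the lines, where 22.1% of the table was called higher in PMT1, 12.7% in PMT2 and 27.9% in PMT3.

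All 5 PMT genes, whose product uses S-adenosylmethionine, were called higher in topped TN90 roots, at 7.56-fold to 13.5-fold. In PMT1 0 of the 5 were called higher and 1 was called lower, as was 3.97% of the table, while 4 of 5 were called higher in PMT2 and in PMT3. The polyamine list held 8 genes, with 5 called higher in TN90, 2 in PMT1, 1 in PMT2 and 2 in PMT3, beside table shares of 47.3%, 22.1%, 12.7% and 27.9%. It joins genes that make putrescine with those that carry it on to spermidine. S-adenosylmethionine decarboxylase, which makes the aminopropyl donor from S-adenosylmethionine, has 2 genes in it, both too low for the rule on named genes and given here after their values were seen. NITAB084207 went from 0.306 to 2.57 RPKM in TN90 roots, 6.56-fold and called, and was 1.62-fold to 2.12-fold in the lines with no call. NITAB046400 was 0.610-fold to 1.06-fold with no call. NITAB012942, an ornithine decarboxylase, which makes putrescine, was called in all 4 genotypes, at 3.00-fold to 4.10-fold. NITAB023946, a second ornithine decarboxylase, was 4.02-fold higher in TN90, 3.21-fold in PMT1, 1.88-fold in PMT2 and 3.98-fold in PMT3. NITAB041017, a spermidine synthase, was 2.02-fold higher in TN90 and 1.16-fold to 1.53-fold in the lines, and NITAB069254, an arginine decarboxylase, was 0.566-fold to 0.763-fold, with no call.

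Among ethylene genes, the 1-aminocyclopropane-1-carboxylate oxidase NITAB058665 went from 1.94 to 6.90 RPKM in TN90 roots, 3.43-fold, and was 1.21-fold to 1.45-fold in the lines. NITAB097562, annotated likewise, was 0.657-fold to 1.06-fold with no call. Of 11 other methyltransferases, 3 were called higher and 1 lower in TN90 roots, 2 higher in PMT1, 1 higher in PMT2 and 2 lower in PMT3. The table shares called higher were 47.3% in TN90, 22.1% in PMT1 and 12.7% in PMT2. They include NITAB099157, a salicylate carboxymethyltransferase, 2.72-fold higher in PMT1 and 2.11-fold in PMT2. NITAB037116 and NITAB079016, glucuronoxylan 4-O-methyltransferases of cell wall synthesis, were 2.02-fold and 2.06-fold higher in TN90. NITAB014610, a probable O-methyltransferase, went from 20.3 to 4.18 RPKM in PMT3, where 6.14% of the table was called lower.

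The RPKM of the pair can be set beside that of the PMT genes. In TN90 roots the pair summed to 119 RPKM without topping and to 395 with it, 3.33-fold, while the PMT sum was 9.28-fold higher. In PMT1 roots the pair summed to 162 and 406 RPKM, 2.51-fold, while the PMT sum went from 69.4 to 53.9 RPKM, 0.777-fold. In PMT2 the pair was 1.87-fold and the PMT sum 2.23-fold higher, and in PMT3 2.11-fold and 3.05-fold. Expressed as a ratio of sums, the pair was 1.31 times the PMT genes in untopped and 0.470 times in topped TN90 roots, and between 2.33 and 7.53 times in the root groups of the lines. The PMT sum includes NITAB068133, which stood higher in leaves of the lines than in those of TN90. Whether reads from the silencing construct count in the PMT sum of the lines was not tested.

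**Figure D4:**
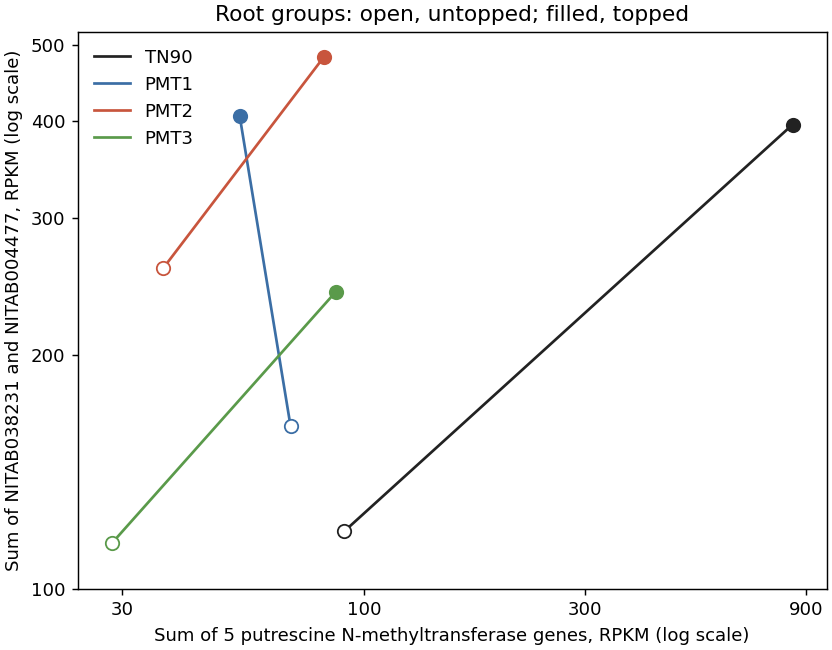
Summed RPKM of NITAB038231 and NITAB004477 against the summed RPKM of the 5 PMT genes in the 8 root groups, both on log scales, with open points for untopped and filled points for topped groups of a genotype, joined by a line. The TN90 line runs from 90.7 to 842 on the PMT axis, and in PMT1 the pair goes from 162 to 406 while the PMT sum goes from 69.4 to 53.9.

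The profile of each gene over the 8 root groups was set beside those of the 1588 table genes that reached 5 RPKM in any root group. The groups share libraries, genotypes and the selection of the table, and correlations are given as a description, by Pearson's r unless stated. The pair had a Pearson r of 0.99 with each other. The 5 genes most like NITAB038231 were NITAB018004, an allantoate deiminase of purine breakdown (r = 0.998), NITAB013455, a receptor-like kinase, NITAB037182, an N-acetyl-gamma-glutamyl-phosphate reductase of arginine synthesis, NITAB076256, with no named function, and NITAB062732, a Hop-interacting protein. Their r was between 0.996 and 0.998, at far lower levels; NITAB018004 ranged from 1.65 to 5.85 RPKM.

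Most like NITAB004477 was NITAB004476, annotated as an H-type thioredoxin, a small redox protein, with r = 0.999. Its identifier is the one before NITAB004477, and positions were not analysed here. NITAB004476 stood at 42.9, 59.7, 91.7 and 43.4 RPKM in untopped roots of TN90, PMT1, PMT2 and PMT3 and at 122, 130, 139 and 75.2 RPKM in topped roots. It was followed by the methionine synthase NITAB056873 (r = 0.996), the aspartyl protease NITAB073420 (r = 0.994), the methylenetetrahydrofolate reductase NITAB008372 (r = 0.993) and NITAB039957, a putative rhamnosyltransferase (r = 0.993). Of the methyl cycle genes the highest-ranking for NITAB038231 was NITAB056873, the 54th at r = 0.984, and of the folate genes NITAB008372, the 33rd at r = 0.989. NITAB057196 and NITAB069852 had r of 0.845 and 0.854 to NITAB038231, below the 0.959 of NITAB020017. Spearman's rho over the same 8 groups gave other orders, with many ties. By rho, NITAB008372 was tied for the highest rank to NITAB038231 at 1, and NITAB056873 stood at 0.976. NITAB020017 and NITAB069852 both stood at 0.952 and NITAB057196 at 0.905. The ranks to NITAB038231 also changed by Pearson's r over all 16 groups. There NITAB056873 ranked 1st, at r = 0.997, and NITAB008372 206th, at r = 0.983.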

How the data were processed

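Total RNA of leaves and roots was sequenced from stranded, paired-end TruSeq libraries. The authors mapped reads to an updated N. tabacum genome in CLC Genomics Workbench, version 11.0.1, using version 2.16 of its RNA-Seq Analysis tool, a similarity and a length fraction of 0.95 and up to 10 hits a read. The deposited library table gives, for each library, a read count, the share mapped as a percent and, of the latter, the percent inside gene models. The deposited expression table gives RPKM as the authors' mean of each of 16 groups, for 2075 genes that the authors called in roots with edgeR's exact test (p of at most 0.05, at least 2-fold). Columns were matched to groups by name.

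Folds are differences of log2(RPKM + 0.1), except for plain ratios of RPKM in the order of groups and of sums. A call needed 2-fold and 1 RPKM in either group, in 28 comparisons. No test between libraries was made, although one had been planned, since the table holds group means. Depth is known only as library totals. The fold and call steps were tested on simulated data whose true changes were either absent or well past 2-fold. That test does not bear on values close to 2-fold. Named genes were both genes of the pair, the other S-adenosylmethionine synthases, every gene of 9 lists where a list held 6 or fewer and otherwise the 4 with the largest mean absolute topping difference in roots among those reaching 5 RPKM in a root group, and the 5 most correlated with each gene of the pair. One of the lists, methylthioadenosine salvage, held 0 table genes. The genes and lists were chosen with earlier results of these data known. Alternatives changed the pseudocount, the RPKM minimum, the fold, the centring, the annotation, the genotypes and the correlation. None of the 2075 identifiers was found in the RefSeq gene table, so no coordinates or sequences are given. Python 3.11.15, numpy 2.4.6, pandas 2.3.3 and matplotlib 3.10.9 were used.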

Additional observations from a re-analysis of the deposited data

Results flagged for a closer look

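Within the groups of 4 to 6 listed libraries, 9 of 45 tests of read totals, percent mapped and percent in gene models had a library far from the others of its group, where chance gives about 1 in 20. Read totals stood apart in PMT2 topped leaves (508326446 reads, others 17486772 to 138974492), PMT3 untopped leaves (517291516, others 16299684 to 46507216) and PMT2 untopped roots (138184962, others 28573994 to 46396138). Percent mapped was low in 1 library of PMT1 topped leaves (92.2%), PMT2 topped leaves (90.42%), PMT2 untopped leaves (91.71%) and PMT3 untopped leaves (88.36%), and high in 1 of PMT3 untopped roots (86.34%, others 80.67 to 81.63%). Percent in gene models was low in 1 library of TN90 untopped leaves, at 97.88%. The weight of these libraries in the means of NITAB038231 and NITAB004477 was not tested.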

How the results depend on the processing

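No call of the pair turned to the opposite direction under any alternative. Changing the pseudocount, the minimum or the fold cannot change the sign of a difference, so only centring could have turned a call. A change of direction among uncalled values under 2-fold was not counted as a reversal. NITAB038231 in untopped PMT3 roots, for example, was 0.948-fold TN90 but 1.07-fold relative to the table median. Of 392 recomputed values of the pair, 358 kept their side of the threshold, 23 lost a call and 11 gained one. Centring accounted for 14 of the lost calls. With a pseudocount of 0, and with no RPKM minimum, all 56 values stayed the same in call. Shares of the table called were not computed at these other settings, so the counts that follow stand without them. In TN90 roots the table median on topping was 1.87-fold, itself above 1.5-fold. At 1.5-fold the calls higher on topping were 8 in roots and 4 in leaves. Against TN90 there were 2 lower in roots and, in leaves, 1 higher and 3 lower. At 3-fold they were 2 in roots and 0 in leaves on topping, and 0 in roots against TN90. Leaf calls on topping fell to 1 with a pseudocount of 1 and to 1 with a minimum of 5 RPKM. With each group centred on its median, 1 value was called on topping in roots, 0 against TN90 in roots and 8 of 16 between root and leaf. In TN90 roots, centring left 1 of the 5 synthases, 2 of 4 methyl cycle and 0 of 3 folate genes called higher, and 3-fold left 2, 2 and 0. Called in all 4 genotypes were 2 synthases, 1 methyl cycle gene and 1 folate gene at 1.5-fold, and 1 synthase without PMT2. The leaf ratio of the pair had a median of 3.63 with a pseudocount of 1, against 4.88. By Pearson's r over 16 groups, 0 of the 5 genes most like NITAB038231 and 3 of those most like NITAB004477 were among the 50 most alike. By Spearman's rho over the root groups all 5 were, for each gene, but tied genes were given the best rank of their tie. For NITAB038231 a rho of 0.976 took rank 23 and a rho of 0.952 rank 118, so more than 50 genes counted as among the 50. The limit for the PMT2 topped roots was added after seeing the data.

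No paired analysis was possible because the expression columns are group means with no replicate number, and leaving out single replicates was not run for the same reason. Low leaf levels rest on few reads, and no replicate error is known for any value.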
